A study of Mus musculus with 8 samples.

Results

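The mitochondrial solute carriers of the SLC25 family were examined in mouse muscle that had lost Sdhc, which anchors complex II, the succinate dehydrogenase of the respiratory chain, in its membrane. Members were the rows of the gene table whose symbol begins with Slc25a, pseudogene symbols left out, which gave 45 of 23930 genes. SLC25 proteins sit mostly in the inner mitochondrial membrane, where each exchanges or imports a small set of metabolites between the cytosol and the matrix. In muscle the best known are the ADP/ATP carrier and the phosphate carrier, which feed ATP synthase and export its product, and the carriers of the malate-aspartate shuttle and of acylcarnitines. Several carry metabolites next to the lost enzyme: the dicarboxylate carrier exchanges malate and succinate for phosphate, and the 2-oxoglutarate/malate carrier moves 2 other acids of the same cycle.

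There were 4 KO and 4 WT libraries of tibialis anterior RNA; this lower leg muscle is mostly of fast fibres. KO mice carried HSA-Cre, a tamoxifen-inducible recombinase expressed in skeletal muscle fibres, and a floxed Sdhc gene. WT mice were littermates with HSA-Cre and no floxed allele. All were given tamoxifen at 12 weeks of age and sampled 20 weeks later, so the recombinase and the drug are common to both groups. The labels write the strain as C57BL/6 for WT and as C57BL/7 or C57BL/8 for KO. The recombinase acts in fibres, while the RNA is of whole muscle, in which other cell types keep Sdhc; fewer cells of a type and less RNA per cell cannot be told apart. No label states that the libraries are of different animals; p-values here reflect library-to-library spread, which may be technical.

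Each gene was read as 1 short amplicon and deposited in RPM, reads per 1000000 reads, from 4774602 to 7281574 reads a library. Such a level does not scale with transcript length, but it does depend on how well an amplicon is amplified. Sdhc stood between 574 and 795 RPM in WT and between 14.5 and 49.4 RPM in KO, which is 3.73% of the WT mean (two-sided exact permutation p = 0.0286, which no 4 against 4 comparison can go below). The 8 fibre markers fixed for the tissue check, among them Acta1, Ckm and Myh4, summed to 97368 to 146598 RPM in WT and 75580.0 to 117974 RPM in KO. Of these, 0 had a positive log2 difference (KO minus WT), where 70.0% of all genes tested had, and their median was -0.27. In the limma test described below 0 of the 8 passed. Acta1 was lower at an unadjusted p under 0.05, as were 3.07% of all genes. WT 1 and KO 4 stood apart from the other 6 libraries, with Xist at 77.3 and 98.9 RPM against at most 0.334 RPM. WT 3 and KO 3 had TMM factors (trimmed mean of M values, a correction for the makeup of a library) of 0.898 and 1.14, the lowest and the highest of the 8. Over all genes tested the median log2 difference was 0.13 as deposited and 0.0058 after TMM scaling (KO minus WT).

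A sequence common among the carriers was counted as a description, not as an independent check of the choice by symbol. The repeats of carriers commonly carry the mitochondrial carrier signature: proline, any residue, aspartate or glutamate, any 2 residues, and then lysine or arginine. In the GENCODE M21 coding sequences (GRCm38), searched in frame on the coding strand in the longest coding transcript of each gene, 26 of the 45 members (57.8%) held the signature at least 3 times. Of all 21559 genes scanned, members included, 2.44% did, and of the 10907 genes within the members' length range of 265 to 677 codons 0.871% did. Slc25a46, an outer membrane protein that acts in mitochondrial shape, Slc25a51, the NAD carrier, and Slc25a53 held no match. The following 30-base stretches show the signature (capitals) in the most abundant carrier, whose 3 copies begin at codons 28, 133 and 230, and in 3 carriers described further on.
Slc25a4 (chr8:46210818-46210847, minus strand): gtcgccCCGATCGAGAGGGTCAAActgctg
Slc25a4 (chr8:46209200-46209229, minus strand): gtctacCCGCTGGACTTTGCTAGGaccagg
Slc25a4 (chr8:46208426-46208455, minus strand): tcctatCCGTTTGACACTGTTCGTcgtagg
Slc25a11 (chr11:70646180-70646209, minus strand): gtgcagCCCCTGGACCTGGTGAAGaaccgg
Slc25a28 (chr19:43664357-43664386, minus strand): acaaccCCACTGGACGTTTGTAAAacactg
Slc25a30 (chr14:75775111-75775140, minus strand): acatttCCAATTGATTTAACTAAGacacgg
The bases differ between copies and genes. The stretches were found by a search for the coded pattern, so each holds it by construction.

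Of the 45 members, 34 had at least 1 RPM in at least 4 libraries and were tested with limma on log2(RPM + 1), with p-values adjusted over all 11087 genes that met the same filter. No member differed between KO and WT at an adjusted p under 0.05 (lowest adjusted p 0.214), where 0.803% of all genes tested did; edgeR on the recovered reads called none either (0.83% of all genes). At an unadjusted p under 0.05 there were 7 members higher in KO and 2 lower, of 34. Among all genes tested 16.1% reached that level, 13.1% higher and 3.07% lower. After TMM scaling 0 members were higher and 4 lower (6.14% and 7.17% of all genes), and edgeR gave 0 and 5 (6.06% and 7.02%), so the direction of this count turned with the scaling. No member passed with TMM after adjustment. Slc25a23, Slc25a28 and Slc25a40 were among the 4 lower members with TMM. None of either direction remained at that level without WT 3 and KO 3. In that fit the count of all genes called after adjustment fell from 89 to 9. Its share of all genes at an unadjusted p under 0.05 is not given.

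The median log2 difference of the 34 members was 0.08, against 0.13 for all genes tested, and -0.04 against 0.0058 after TMM scaling. As deposited, 21 of 34 members had a positive difference, as had 70.0% of all genes; with TMM it was 15 of 34 and 51.2%. The 95% interval of the difference lay between -1 and 1, that is within a doubling or halving on the log2(RPM + 1) scale, for 31 of 34 members and for 93.2% of all genes. The exceptions were Slc25a25, Slc25a30 and Slc25a34. In 32 of the 34 members the groups overlapped. Slc25a38 was higher in every KO library and Slc25a28 lower in every KO library, where 7.5% and 1.61% of all genes tested were separated in those directions.

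**Figure D1:**
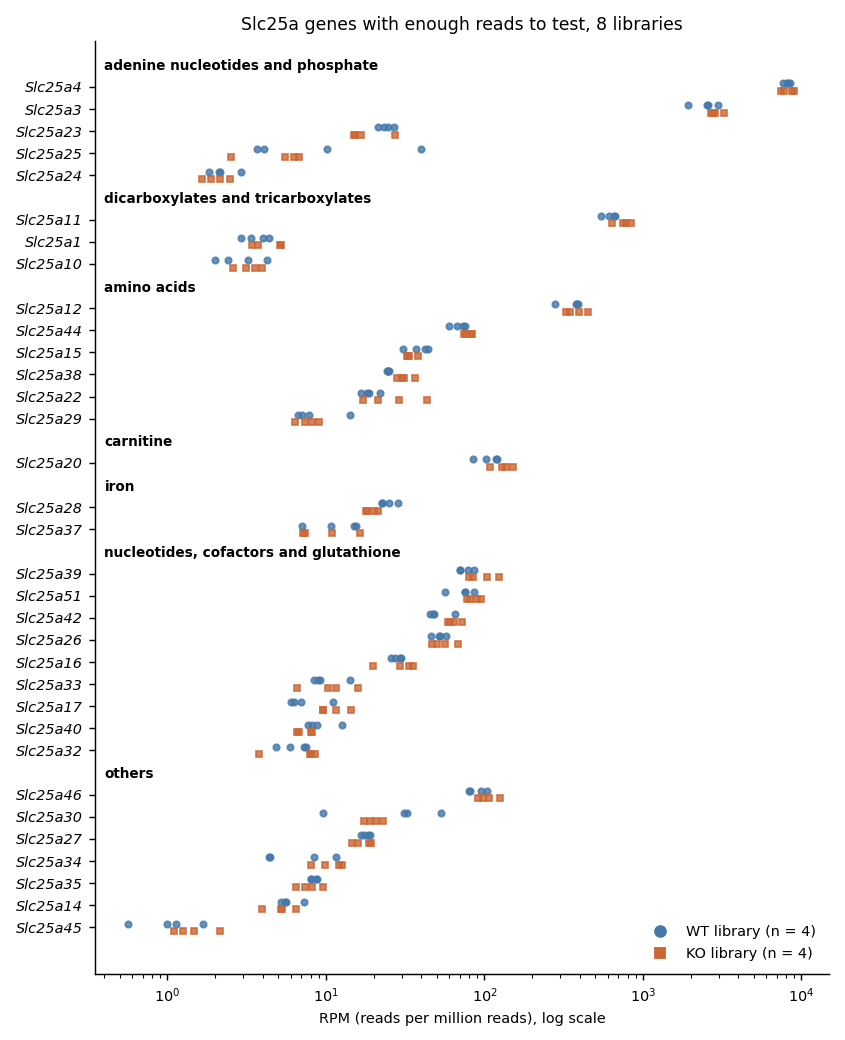
RPM (log axis) of 33 tested Slc25a genes in each of 4 WT (circles) and 4 KO (squares) libraries, grouped by substrate. WT and KO points lie over one another for nearly all genes; Slc25a38 and Slc25a28 are the 2 whose groups are apart.

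**Figure D2:**
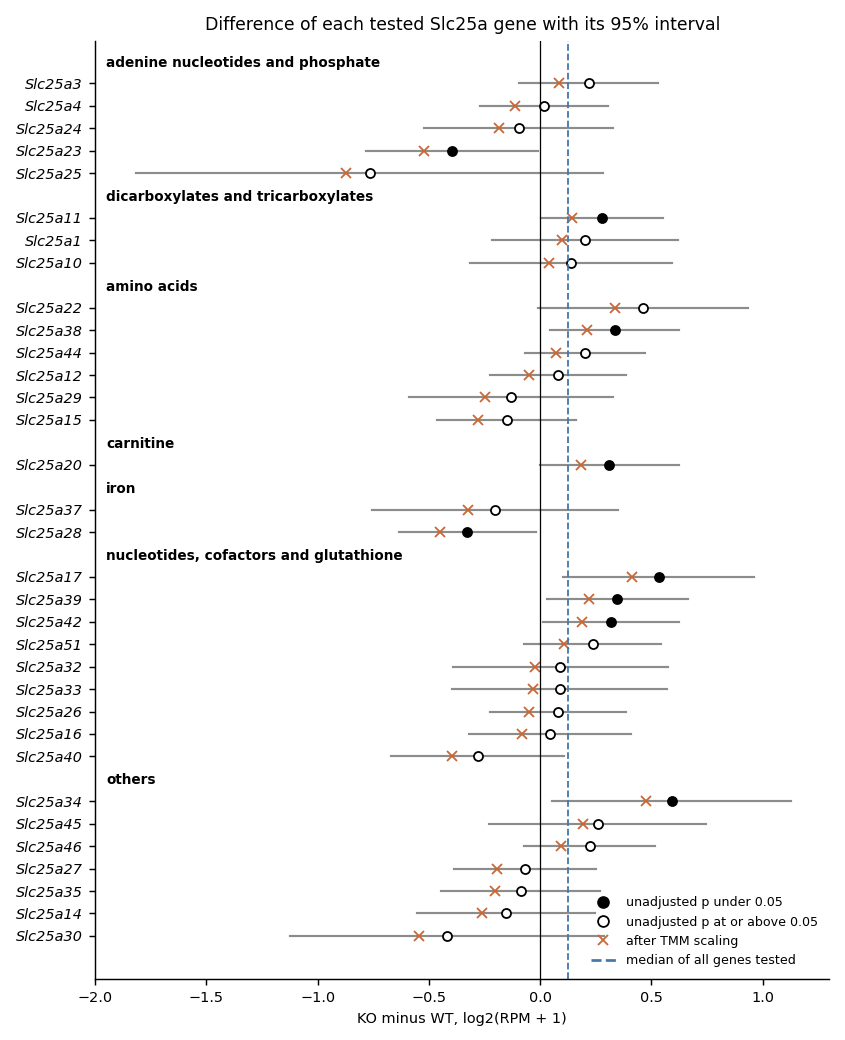
KO minus WT difference of 33 tested Slc25a genes on the log2(RPM + 1) scale, each with its 95% interval (limma); crosses are the differences after TMM scaling and the dashed line is the median of all genes tested, at 0.13. Filled points have an unadjusted p under 0.05, and every cross lies to the left of its point.

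Among carriers of adenine nucleotides and phosphate, the ADP/ATP carrier of heart and muscle, Slc25a4 (ANT1; chr8:46206797-46211284, minus strand, GRCm38), held 8423, 7691, 8144 and 8185 RPM in WT 1 to 4. In KO 1 to 4 it held 8738, 7410.3, 7813 and 8955 RPM. The KO libraries spread on both sides of the WT range. The log2 difference was 0.02 (SE 0.13, 95% interval -0.27 to 0.30, limma adjusted p = 0.966), and after TMM scaling it was -0.11. The phosphate carrier Slc25a3, which brings in phosphate for ATP synthesis, averaged 2499 ± 435 RPM (WT) and 2879.8 ± 245 RPM (KO) (mean ± SD, n = 4 each, here and below; limma adjusted p = 0.475). These 2 genes took 81.7% to 86.5% of the family's summed RPM in each library, a share of amplicon reads and not of molecules. Slc25a5, the ADP/ATP carrier of other cell types, is not analysed here, and whether reads of near-identical copies reached the Slc25a4 amplicon was not tested.

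The calcium-regulated ATP-Mg/phosphate carriers, which shift the size of the matrix adenine nucleotide pool, had low levels. Slc25a23 contained 26.8, 23.4, 21.4 and 24.5 RPM in WT 1 to 4 and 15.3, 16.5, 15 and 27.2 RPM in KO 1 to 4. KO 1 to KO 3 lay below every WT library, while KO 4 lay above all of them. The difference was -0.40 (SE 0.18, 95% interval -0.78 to -0.01, unadjusted p = 0.0459, limma adjusted p = 0.301); without KO 4 it was -0.59 with an adjusted p of 0.0588. Slc25a25, chosen after its values were seen, had 39.8, 3.67, 10.1 and 4.05 RPM in WT 1 to 4, and 2.5 to 6.74 RPM over the KO libraries. It varied 15.9-fold over the 8 libraries, the most of the 34 tested members, and WT 1 was the only library above 10.1 RPM (difference -0.77, SE 0.50, adjusted p = 0.454). Without WT 1 the difference was -0.098 (limma adjusted p = 0.904), and in edgeR with TMM on all libraries it was -1.60 (adjusted p = 0.265). Slc25a24 ranged from 1.64 to 2.92 RPM. The testis ADP/ATP carrier Slc25a31 and Slc25a41 had at most 2 reads and 1 read in a library.

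Of the dicarboxylate and tricarboxylate carriers, the 2-oxoglutarate/malate carrier Slc25a11 (chr11:70644196-70647479, minus strand), which exports 2-oxoglutarate in the malate-aspartate shuttle, held 659.7, 610.4, 544 and 671 RPM in WT 1 to 4. In KO 1 to 4 it held 784, 841, 750.3 and 640.1 RPM. KO 1 to KO 3 were above all WT libraries and KO 4 was among them. The difference was 0.28 (SE 0.13, unadjusted p = 0.0482, limma adjusted p = 0.305), or 0.15 after TMM scaling. The gene overlaps Rnf167 on the other strand, and the sources used here do not say if reads were counted by strand. The dicarboxylate carrier Slc25a10, which exchanges malate and succinate for phosphate, was low in both groups, at most 4.23 RPM in WT and from 2.61 to 3.93 RPM in KO. Its difference was 0.14 with a 95% interval of -0.32 to 0.59 (limma adjusted p = 0.787). The citrate carrier Slc25a1, which supplies cytosolic acetyl groups, averaged 3.66 ± 0.634 RPM (WT) and 4.38 ± 0.92 RPM (KO) (adjusted p = 0.635). The oxodicarboxylate carrier Slc25a21 had at most 1 read in any library.

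Of the amino acid carriers, the glycine carrier Slc25a38 (chr9:120110374-120124504, plus strand), which supplies glycine for heme synthesis, held 25.1, 24.4, 24.5 and 24.5 RPM in WT 1 to 4. In KO 1 to 4 it held 31.1, 36.2, 30.3 and 28.2 RPM, every value above every WT value. The difference was 0.34 (SE 0.14, 95% interval 0.04 to 0.63, unadjusted p = 0.0264), short of the threshold after adjustment (limma adjusted p = 0.247) and 0.21 after TMM scaling. The adjusted p lay between 0.174 and 0.677 over the 23 alternative fits.

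The aspartate/glutamate carrier of muscle, Slc25a12 (aralar), which drives the malate-aspartate shuttle, held 391, 382, 280.2 and 378 RPM in WT 1 to 4 and 324, 447, 395 and 347 RPM in KO 1 to 4. The groups overlapped widely (difference 0.08, 95% interval -0.22 to 0.39, limma adjusted p = 0.816), and after TMM scaling the difference was -0.05. Its paralogue Slc25a13 (citrin) had 2 to 6 reads in a library and was below the filter. The glutamate carrier Slc25a22, chosen after its values were seen, held 43.7, 28.9, 21.4 and 17.2 RPM in KO 1 to 4 against 16.5 to 21.9 RPM in WT. KO 1 and KO 2 lay above the WT range and the other two within it (difference 0.46, SE 0.22, adjusted p = 0.317). Without KO 1 the difference was 0.22 (adjusted p = 0.586). The branched-chain amino acid carrier Slc25a44 ranged from 60.1 to 74.8 RPM in WT and 73.9 to 84 RPM in KO, and the ornithine carrier Slc25a15 from 30.5 to 43.8 RPM and 32.7 to 38.2 RPM. The basic amino acid carrier Slc25a29 ranged from 6.41 to 14.2 RPM over all libraries. The second ornithine carrier Slc25a2 had at most 2 reads. The second glutamate carrier, Slc25a18, had no read in WT, which allows up to 0.501 RPM in a library at a floor of 3 reads, and 1 to 3 reads in each KO library.

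Carnitine is served by Slc25a20 (chr9:108662088-108684641, plus strand), which exchanges acylcarnitine for carnitine in fatty acid import. It held 102, 119.5, 84.4 and 118 RPM in WT 1 to 4 and 151, 137, 129.6 and 108 RPM in KO 1 to 4. KO 1 to KO 3 lay above the WT range and KO 4 within it. The difference was 0.31 (SE 0.15, unadjusted p = 0.0499, limma adjusted p = 0.309) and 0.18 after TMM scaling. Of 5 carnitine shuttle enzymes listed, 4 were in the table and 3 were tested, so the shuttle was not covered in full. None of the 3 passed the test or reached an unadjusted p under 0.05, where 0.803% and 16.1% of all genes tested did. The smallest p was that of Cpt1a, the liver-type outer membrane transferase, with 7.33 ± 0.919 RPM (WT) and 10.03 ± 3.28 RPM (KO) (limma adjusted p = 0.372).

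Iron enters the matrix through the mitoferrins, where it is used for heme and iron-sulphur clusters. Mitoferrin 2, Slc25a28 (chr19:43663801-43674881, minus strand), held 22.4, 28.5, 22.5 and 24.9 RPM in WT 1 to 4 and 18.2, 21.4, 17.8 and 20.1 RPM in KO 1 to 4. Every KO value lay below every WT value, KO 2 and WT 1 being the nearest pair. The difference was -0.33 (SE 0.15, 95% interval -0.64 to -0.02, unadjusted p = 0.04, limma adjusted p = 0.289), and -0.45 after TMM scaling (adjusted p = 0.149). Mitoferrin 1, Slc25a37, best known from red cell precursors, ranged from 7.05 to 15.4 RPM in WT and from 7.12 to 16.4 RPM in KO (adjusted p = 0.728). Of the erythroid markers listed, 5 were in the table and summed to 11.6 to 22.5 RPM in WT and 13.7 to 26.5 RPM in KO, most of it Alas2. The 7 tested enzymes of mitochondrial iron and heme use held no gene with an unadjusted p under 0.05, a level that 16.1% of all genes tested reached. The smallest p among them was that of Alas2, the erythroid enzyme of the first step of heme synthesis (14.7 ± 4.71 RPM in WT, 17.6 ± 4.61 RPM in KO, limma adjusted p = 0.571).

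All 10 carriers of nucleotides, cofactors and glutathione were tested, and 3 were higher in KO at an unadjusted p under 0.05, against 13.1% of all genes. With TMM scaling the group had 0 higher and 2 lower at that level, and in edgeR 0 and 1. Slc25a17, which serves the peroxisome, held 11.1, 6.01, 6.27 and 6.96 RPM in WT 1 to 4 and 9.53, 9.63, 11.6 and 14.3 RPM in KO 1 to 4. WT 1 lay within the KO range and the other WT libraries below it (difference 0.53, SE 0.20, unadjusted p = 0.0185, limma adjusted p = 0.214, the lowest of the family; 0.41 after TMM scaling). The coenzyme A carrier Slc25a42 had the same arrangement, at 64.9, 47.9, 45.2 and 47.4 RPM in WT 1 to 4 against 64.1, 72, 58.7 and 60.3 RPM in KO 1 to 4 (difference 0.32, SE 0.14, adjusted p = 0.298; 0.19 after TMM scaling). The glutathione carrier Slc25a39 held 78.3, 69.8, 85.4 and 69.6 RPM in WT 1 to 4 and 84.3, 104, 123 and 80.1 RPM in KO 1 to 4. KO 2 and KO 3 exceeded the WT range (difference 0.35, SE 0.15, limma adjusted p = 0.274; 0.22 after TMM scaling).

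The NAD carrier Slc25a51 ranged from 56.7 to 86.1 RPM in WT and 78 to 94.9 RPM in KO. The S-adenosylmethionine carrier Slc25a26 lay between 46.3 and 67.9 RPM, Slc25a16, a carrier linked to coenzyme A, between 19.9 and 35.2 RPM, and the pyrimidine nucleotide carrier Slc25a33 between 6.59 and 15.9 RPM over all libraries. The folate and flavin carrier Slc25a32 lay between 3.78 and 8.52 RPM, and the second glutathione carrier, Slc25a40, between 6.6 and 12.6 RPM. Slc25a36 is not analysed here.

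Of the 12 other members, 7 were tested. Slc25a46, the outer membrane protein, held 81.5, 103, 80.4 and 94.4 RPM in WT 1 to 4 and 107, 90.7, 125 and 98.1 RPM in KO 1 to 4, with overlap (difference 0.22, 95% interval -0.07 to 0.52, limma adjusted p = 0.439; 0.092 after TMM scaling). Slc25a34 held 11.6, 8.35, 4.42 and 4.37 RPM in WT 1 to 4 and 9.86, 12.1, 8.03 and 12.6 RPM in KO 1 to 4. Its groups overlapped through WT 1 and WT 2 (difference 0.59, SE 0.25, unadjusted p = 0.0335, limma adjusted p = 0.271), and its interval reached 1.13. The uncoupling protein-like Slc25a14 and Slc25a27 ranged from 3.93 to 7.29 RPM and from 14.6 to 19.3 RPM, Slc25a35 from 6.42 to 9.61 RPM, and Slc25a45 from 0.564 to 2.14 RPM. Slc25a43, Slc25a47, Slc25a48 and Slc25a53 had at most 4 reads in a library. Slc25a54 had no read in any, which allows up to 0.412 to 0.628 RPM at the floor of 3 reads.

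Slc25a30 (chr14:75760117-75787037, minus strand), chosen after its values were seen, was the only member called in any alternative fit. It held 9.59, 52.9, 32.2 and 31.3 RPM in WT 1 to 4 and 19.1, 22.8, 20.7 and 17.4 RPM in KO 1 to 4. WT 1 lay below every KO library, while WT 2 to WT 4 lay above all of them. With all 8 libraries the difference was -0.42 (SE 0.33, 95% interval -1.13 to 0.29, limma adjusted p = 0.55). Without WT 2, the highest library, it was -0.10 (adjusted p = 0.906). Without WT 1 it was -0.89 (adjusted p = 0.0274), where 0.568% of all genes were called lower, and in the 6 libraries without Xist it was -0.83 (adjusted p = 0.0237), where 1.32% were. With a term for Xist in the model and all libraries kept it did not pass (adjusted p = 0.368). WT 1 carried Xist, and so did KO 4, the lowest KO library of this gene; the part of that difference between libraries in the result was not tested.

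**Figure D3:**
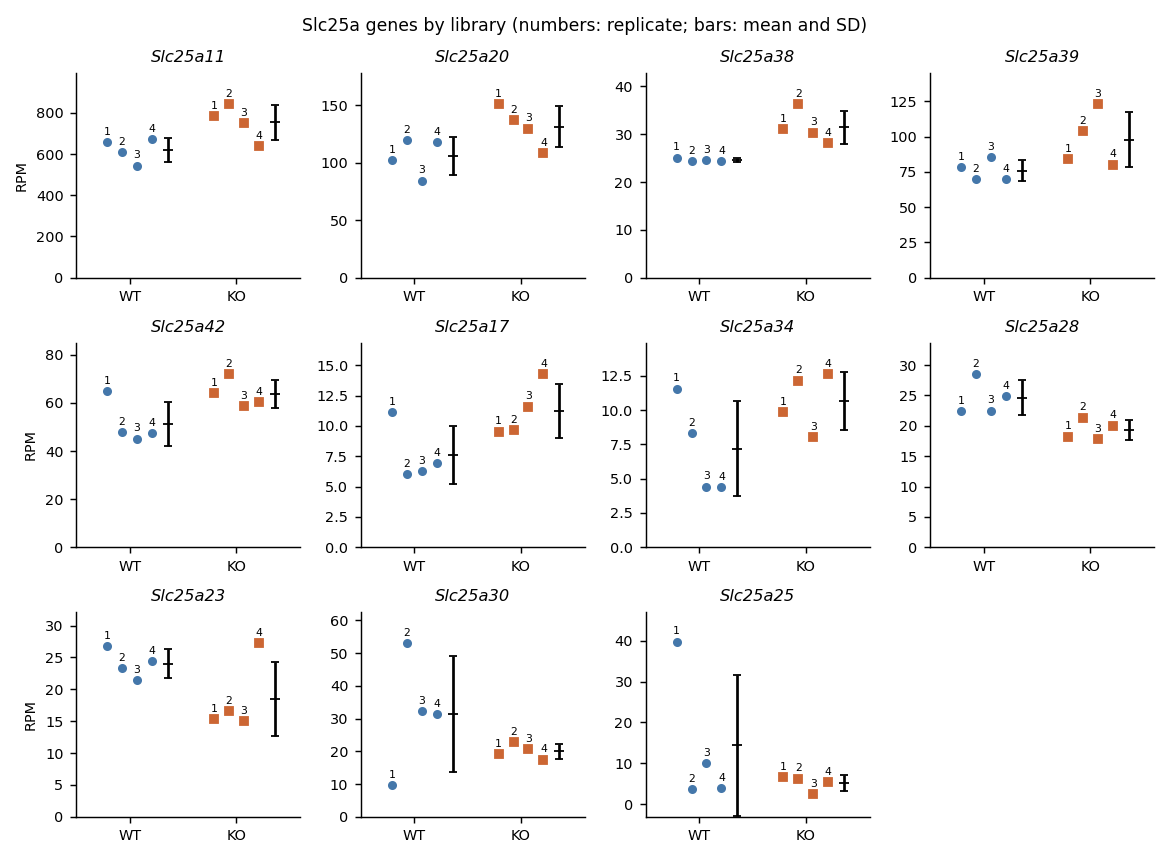
RPM of 11 Slc25a genes in each library, with the replicate number above each point and bars for mean and SD of 4 libraries. The 9 genes with an unadjusted p under 0.05 come first; in Slc25a23 KO 4 stands above the other KO libraries, and in Slc25a30 and Slc25a25 WT 1 stands apart from the other WT libraries.

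Ratios between carriers of like substrate do not depend on how a library is scaled, apart from the added 1 RPM. Of 6 pairs planned, 4 could be computed. Slc25a39 relative to Slc25a40, both glutathione carriers, had log2 ratios of 3.11, 3.03, 3.13 and 2.37 in WT 1 to 4 and 3.46, 3.52, 4.03 and 3.15 in KO 1 to 4. Every KO ratio exceeded every WT ratio, KO 4 and WT 3 by little, and the mean difference was 0.63 on the log2 scale. The exact two-sided permutation p was 0.0286, the smallest possible, and 0.114 when adjusted over the 4 ratios. With 5 RPM added in place of 1 the groups of this ratio overlapped. The difference was then 0.53, and the exact permutation p adjusted over the 4 ratios was 0.229. The ratio of Slc25a12 to Slc25a13 differed by 0.15 (exact permutation p = 0.486), with Slc25a13 at 2 to 6 reads. That of Slc25a37 to Slc25a28 differed by 0.12 (exact permutation p = 0.771), and that of Slc25a23 to Slc25a25 by 0.37 (exact permutation p = 0.743); adjusted over the 4 ratios, p was 0.771 for all 3. Both of these turned negative without WT 1, to -0.05 and -0.25.

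**Figure D4:**
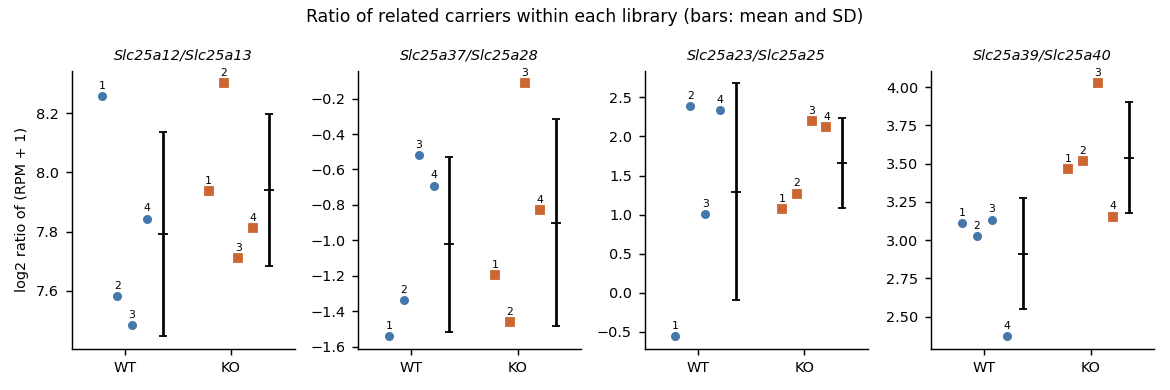
Log2 ratio of (RPM + 1) of 4 pairs of related carriers within each library, with bars for mean and SD of 4 WT and 4 KO libraries; the vertical axes differ between panels. The KO ratios of Slc25a39 to Slc25a40 (3.15 to 4.03) lie above the WT ratios (2.37 to 3.13), and the groups of the other 3 pairs overlap.

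Some SLC25 proteins bear other symbols. Of 5 such genes, 4 were tested and Ucp2, an uncoupling protein found in many cell types, rose in KO (1 higher and 0 lower, where 0.523% and 0.28% of all genes were called in those directions). Ucp2 held 33.8, 32.4, 36.9 and 30.6 RPM in WT 1 to 4 and 51.8, 46.9, 58.2 and 63.7 RPM in KO 1 to 4, without overlap (difference 0.70, SE 0.14, limma adjusted p = 0.0252). The call was lost with TMM scaling (adjusted p = 0.0638), in edgeR with TMM (0.0649), with quantile normalization (0.0588), with no variance trend (0.0546), without WT 3 and KO 3 (0.191) and without WT 2 (0.0811), WT 3 (0.0734), WT 4 (0.0731), KO 1 (0.072) or KO 3 (0.0767), while the difference lay between 0.57 and 0.77 in all 23 alternatives. Endothelial markers were higher in the same libraries: 7 of 8 had an unadjusted p under 0.05, against 13.1% of all genes, none passed, and their sum ranged from 367 to 514 RPM in WT and from 541 to 715 RPM in KO. The 6 macrophage markers summed to 56.2 to 108.7 RPM in WT and 81.5 to 117 RPM in KO, most of it Lyz2. Cd68 was called higher (limma adjusted p = 0.0192), but the other 4 tested had differences from -0.15 to 0.29, none with an unadjusted p under 0.05, and the median of the list was 0.066. No gene of either list was at 0 in all libraries, and the part of these cells in the Ucp2 result was not tested. Ucp3, the uncoupling protein of muscle, ranged from 81.8 to 231 RPM in WT and from 80.1 to 152 RPM in KO (adjusted p = 0.971). Ucp1, that of brown fat, had 1 read in all libraries together. At an unadjusted p under 0.05, 2 of the 4 tested genes of this list were higher in KO, Ucp2 and Mtch2, against 13.1% of all genes. Mtch2 averaged 62.1 ± 7.76 RPM (WT) and 84.5 ± 18.9 RPM (KO), with overlap (difference 0.42, limma adjusted p = 0.209, and 0.29 after TMM scaling). Mtch1 differed by -0.12 (limma adjusted p = 0.679).

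None of the partner genes of the carriers passed, where 0.803% of all genes tested did. Of 14 genes listed for the pathway that inserts carriers into the inner membrane, 8 were in the table and all 8 were tested. Among them 2, Timm10 and Tomm22, were higher at an unadjusted p under 0.05, against 13.1% of all genes. Timm10, a small chaperone of the space between the membranes that guides carrier precursors, held 27.5, 28.4, 26.5 and 33 RPM in WT 1 to 4 and 46.5, 47.3, 53.5 and 34.9 RPM in KO 1 to 4. Its groups did not overlap, as for 7.5% of all genes tested in that direction (difference 0.63, SE 0.15, limma adjusted p = 0.0651). It passed in 5 alternative fits, with the lowest adjusted p of 0.0154 in the 6 libraries without Xist. In the other 18 it did not pass, among them TMM scaling (0.105), edgeR with TMM (0.101), without WT 3 (0.226) and without WT 3 and KO 3 (0.410). Of the 3 tested enzymes of the malate-aspartate shuttle, Mdh1, the cytosolic malate dehydrogenase, had the smallest p (455 ± 76.1 RPM in WT, 593 ± 101 RPM in KO, limma adjusted p = 0.236; difference 0.38, or 0.25 after TMM scaling). The 18 other transporters of the mitochondrial membranes held none at an unadjusted p under 0.05; Abcb8 had the smallest p (15.0 ± 2.52 RPM in WT, 11.8 ± 2.09 RPM in KO, adjusted p = 0.384), and Mpc2, a subunit of the pyruvate carrier, stood at 619 ± 57.9 and 620.1 ± 61.5 RPM.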

How the data were processed

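The authors deposited 1 table of RPM for 8 libraries of the Ion AmpliSeq mouse transcriptome panel; per the submitters' processing notes the Transcriptome Analysis Console was used. The sources used here give no version, aligner, genome build, filter or use of strand. Columns were matched to samples by barcode and groups taken from titles. All values were whole multiples of 1 read (100% within 0.05 reads), which gave 4774602 to 7281574 reads; 3 reads correspond to 0.412 to 0.628 RPM. Amplicon reads carry no molecular identifiers, so floors cover counting error only.

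The 11087 genes that reached 1 RPM in 4 or more libraries entered the test on log2(RPM + 1), a scale that understates changes of low genes, with limma 3.58.1 in R 4.3.3 (two-sided, with a variance trend; threshold of 0.05 after Benjamini-Hochberg adjustment), and checked on simulated data. Alternatives were pseudocounts of 0.5 and 5, no filter and 5 RPM, TMM, quantile normalization, no trend, array weights, a replicate term, an Xist term, omitted libraries, edgeR 4.0.16 and DESeq2 1.42.0 on recovered reads. Library by library values are given for members with an unadjusted p under 0.05 and the most abundant member of each substrate group; those chosen after their values were seen are marked. From other lists the called genes and that with the smallest p are named. The values of 1 tested member are not reported here, though it counts in the totals. The members and lists were chosen with earlier results of these data known. Positions and coding sequences came from GENCODE M21 on GRCm38, where all 45 symbols matched; 16 members share bases with an opposite-strand gene and 8 with a same-strand gene. Of the marker lists, slow fibre genes held 3 of 5 tested genes higher at an unadjusted p under 0.05 (13.1% of all genes), while Myl2 (-0.54) and Myl3 (-0.28), most of the list's reads, were on the other side; the list summed to 124 to 276 RPM in WT and 88.5 to 215 RPM in KO. Of 7 fibroblast and tendon genes, Scx, a tendon marker, was called lower (limma adjusted p = 0.0164), as were 0.28% of all genes. In the same list 1 was higher at an unadjusted p under 0.05, against 13.1% of all genes. Adipocyte and Schwann cell genes held none in either direction at that level, which 16.1% of all genes reached.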

Additional observations from a re-analysis of the deposited data

Results flagged for a closer look

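In groups of 4 libraries, a sample was singled out where its gap to the nearest other exceeded Dixon's 95% critical share of the group's range. The nominal rate of this rule is about 1 in 20 groups, and 8 of 66 groups of 33 tested members were singled out. The share over all genes was not computed, and the groups come from the same libraries. The count is therefore not read as a trait of the family.

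In KO 4, Slc25a23 stood at 27.2 RPM (other KO libraries 15 to 16.5 RPM) and Slc25a15 at 38.2 RPM (32.7 to 33.3 RPM). In WT 1, Slc25a29 stood at 14.2 RPM (other WT libraries 6.64 to 7.84 RPM) and Slc25a42 at 64.9 RPM (45.2 to 47.9 RPM). In WT 3, Slc25a12 stood low at 280.2 RPM (378 to 391 RPM). In WT 4, Slc25a14 stood at 7.29 RPM (5.22 to 5.56 RPM) and Slc25a33 at 14.1 RPM (8.41 to 9.18 RPM). In KO 1, Slc25a32 stood low at 3.78 RPM (7.96 to 8.52 RPM).

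KO 4 was the highest or lowest KO library for 25 of the 34 members (73.5%), against 52.5% of all genes tested, and WT 1 the extreme WT library for 20 (58.8%, against 57.6%).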

How the results depend on the processing

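No Slc25a member was called in 21 of 23 alternatives; the count was 1, Slc25a30, in the libraries without Xist and without WT 1, so that leaving out 1 library gave 0 to 1. The cause was not tested. The count over all genes, 89, became 59 with no filter, 181 with array weights, 235 with the Xist term, 403 in the libraries without Xist, 9 without WT 3 and KO 3, 240 in DESeq2 and 16 to 270 when 1 library was left out (157, 26, 16 and 56 without WT 1 to 4; 31, 50, 41 and 270 without KO 1 to 4). The members' median difference of 0.08 became -0.041 with TMM, -0.013 with quantile normalization, -0.027 in edgeR with TMM, -0.026 in DESeq2, 0.013 without WT 3 and KO 3, and 0.017 to 0.17 when 1 library was left out. The median of all genes was 0.057 without WT 3 and KO 3 and 0.085 to 0.15 when 1 library was left out. The members' median lay above that of all genes without KO 4 (0.17 against 0.12) and with no filter (0.085 against 0.055). In the other alternatives it lay below. The Sdhc difference was -670 RPM; leaving out 1 library gave -711 to -637 RPM (exact permutation p = 0.0571, the smallest possible).

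Of the 345 values of 15 named members, 330 kept direction and side of the threshold and 13 changed sign. Slc25a4 turned to -0.11 with TMM, in edgeR with TMM and in DESeq2, and to -0.0064 without Xist libraries; leaving out 1 library gave -0.025 (without KO 4) to 0.066, below 0 also without WT 2 and without KO 1. Slc25a12 turned to -0.049 with TMM, in edgeR with TMM and in DESeq2 and to -0.056 without WT 3 and KO 3; leaving out 1 library gave -0.031 (without WT 3) to 0.15, below 0 also without KO 2. The Slc25a37 to Slc25a28 ratio turned to -0.074 without Xist libraries and the Slc25a23 to Slc25a25 ratio to -0.40; leaving out 1 library gave -0.14 (without KO 3) to 0.31 and -0.25 (without WT 1) to 0.73. The counts at an unadjusted p under 0.05, added after seeing the data, lay between 0 and 8 higher and 0 and 5 lower. Shares of all genes at that level are given only for the main fit, TMM scaling and edgeR with TMM.

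Same-numbered libraries did not deviate together (r = -0.0085, 0.079, -0.12 and -0.094 for numbers 1 to 4). The labels do not say that the numbers pair animals, and these correlations cannot decide it. With the replicate block 0 members and 81 genes were called. At an unadjusted p under 0.05, 6 members were higher and 1 lower, with no share of all genes given for that fit. The Sdhc difference of -670 RPM had an exact permutation p of 0.125 with the block, the smallest 4 pairs allow. The members below the filter rest on at most 6 reads a library.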
